A study of Mus musculus with 6 samples.

Results

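Transcript levels were examined for 10 genes of the small leucine-rich proteoglycan family: Dcn, Bgn, Aspn, Fmod, Lum, Prelp, Omd, Epyc, Ogn and Chad. They were taken by gene symbol from the deposited expression table, and all 10 were found among its 27734 genes. Rib chondrocytes were released from E18.5 mouse embryos by pronase and collagenase D digestion. Of the 6 libraries, 3 came from wild-type embryos and 3 from Jab1flox/flox; Col2a1-Cre mutants, called Jab1 cKO below. In these mutants Cre is driven by the Col2a1 promoter, which is active in cartilage cells, and the wild-type label gives no further genotype. Jab1, the product of Cops5, is the catalytic subunit of the COP9 signalosome, which removes Nedd8 from cullin ubiquitin ligases. Libraries are named by group and by the number (0, 1 or 2) in their column names, and values are FPKM, fragment counts scaled to transcript length and to library size, which allows levels to be compared between genes.

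Small leucine-rich proteoglycans are secreted proteins whose core is a curved stack of leucine-rich repeats. Most bind collagen fibrils and set the diameter and spacing of the fibrils. Decorin, biglycan and epiphycan carry chondroitin or dermatan sulfate chains, lumican and fibromodulin carry keratan sulfate, and chondroadherin and asporin are not known as carriers of such chains. Several of them also bind transforming growth factor beta (TGF-beta) or signal through cell surface receptors. In the growth plate and rib cartilage they lie in the matrix around chondrocytes, with epiphycan typical of developing cartilage.

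Cops5 measured 42.3, 39.8 and 40.1 FPKM in the wild-type and 17.0, 18.0 and 17.2 FPKM in the mutant libraries, so the labels and the targeted gene went together. Of the 12 chondrocyte markers, 7 were found, and their summed level was 5467 to 6003 FPKM in the wild-type libraries against 3591 to 5943 FPKM in the mutants. Limma called 2 of the 7 as lower, Comp (adjusted p = 0.024) and Matn3 (adjusted p = 0.045), against 2.59% of all genes tested. With no overlap, 4 of the 7 were lower, against 15.9% of all genes tested. The median log2 fold change of the 7 was -0.47, beside -0.0039 over all genes tested. Without wild-type library 0, 1 or 2, or mutant library 1 or 2, neither Comp nor Matn3 was called. The call for Matn3 was also lost without mutant library 0. Red blood cell markers fell in the mutant, with 5 of 5 tested lower and sums of 196 to 221 FPKM against 14.9 to 49.4 FPKM, but 0 of the 5 passed without wild-type library 0, 1 or 2 or mutant library 2. Sex-linked genes also divided the libraries. Xist, the RNA of the inactive X chromosome, measured 63.1, 64.6 and 65.9 FPKM in the wild-type libraries against 37.3, 0.0176 and 0.0244 FPKM in mutants 0, 1 and 2, while Y-linked Ddx3y measured 0.157, 0.0281 and 0.450 against 7.78, 46.1 and 36.0 FPKM. Genotype and the sex of the embryos can therefore not be told apart fully, and the mutant libraries also differed among themselves in these genes. Nothing in the labels says that libraries came from separate embryos, so p-values rest on a spread between libraries that need not be one between embryos. By its Xist and Ddx3y values, mutant library 0 was not of the same material as mutant libraries 1 and 2. The title of the sample matched to wild-type library 0 carries a later date than the other 5 sample titles, with no word on what was done then.

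The family was strongly expressed, and its summed level was lower in each Jab1 cKO library than in each wild-type library. An exact two-sided permutation test of that sum gave p = 0.1, the smallest value that 3 against 3 libraries can give. Lum and Dcn, which are neighbours on chromosome 10, fell to 54.9% and 67.7% of their wild-type means. Both calls were lost without wild-type library 0, 1 or 2, and with the Ddx3y level as a covariate. The remaining 8 genes did not pass the test. Among these, Bgn, Epyc and Fmod were lower in every mutant than in every wild-type library, Ogn was higher in every mutant library, Chad, Prelp and Aspn overlapped between groups, and Omd differed least. Such separation was common, with 15.9% of all genes tested lower and 16.3% higher without overlap. The chondrocyte markers had a median change of -0.47, beside -0.50 for the family, and their part in the family's values was not tested. All 10 genes passed the filter on low values, for which the 6 libraries had to average 1 FPKM or more.

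The regulatory sequence just upstream of these genes is shown for 4 members with high levels, Epyc, Bgn and Fmod on the lower side and Ogn on the higher side. RefSeq promoter windows on GRCm38.p6, the assembly of mm10, were at hand for 8 of the 10 genes. Dcn and Lum had no entry. Each line gives the 250 bases before the annotated start, and capitals mark matches, on either strand, to any of 6 short motifs: ACAAT (the core bound by SOX factors), TATAAA (the TATA box), TGTGGT (RUNX factors), TGANTCA (AP-1), TGGGTGGTC (GLI factors) and GGAATG (TEAD factors).
Epyc, chr10:97643818-97644067, plus strand: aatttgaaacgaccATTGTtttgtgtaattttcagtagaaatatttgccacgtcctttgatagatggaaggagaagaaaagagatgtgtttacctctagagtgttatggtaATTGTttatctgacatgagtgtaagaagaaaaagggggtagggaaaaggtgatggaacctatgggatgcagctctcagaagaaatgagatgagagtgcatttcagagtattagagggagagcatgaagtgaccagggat
Ogn, chr13:49607765-49608014, plus strand: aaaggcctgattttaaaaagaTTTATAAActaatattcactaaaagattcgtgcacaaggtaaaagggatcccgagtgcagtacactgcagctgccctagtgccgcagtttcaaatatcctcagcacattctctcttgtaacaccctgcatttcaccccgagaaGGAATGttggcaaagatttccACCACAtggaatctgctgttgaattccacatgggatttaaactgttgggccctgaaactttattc
Fmod, chr1:134037004-134037253, plus strand: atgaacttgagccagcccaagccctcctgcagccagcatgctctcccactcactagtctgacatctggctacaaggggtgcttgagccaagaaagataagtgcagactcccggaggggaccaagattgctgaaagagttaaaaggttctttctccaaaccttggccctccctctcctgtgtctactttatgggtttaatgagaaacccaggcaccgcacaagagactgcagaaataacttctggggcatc
Bgn, chrX:73483351-73483600, plus strand: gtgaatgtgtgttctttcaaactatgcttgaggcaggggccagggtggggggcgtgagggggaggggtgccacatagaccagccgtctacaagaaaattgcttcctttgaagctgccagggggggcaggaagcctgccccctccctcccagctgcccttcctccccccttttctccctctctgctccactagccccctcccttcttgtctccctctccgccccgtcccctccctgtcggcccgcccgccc

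The promoters differed widely in base composition. The upstream stretch held 64.4% G and C in Bgn and 51.2% in Fmod, but 42.0% in Ogn and 39.2% in Epyc. Those of the other chromosome 13 members, Aspn and Omd, held 30.0% and 38.4%, against a median of 52.4% over all such stretches. Over the full window of 300 bases, which runs 50 bases past the start, the 8 genes had 9 windows, since Epyc had a pair. ACAAT was found in 6 of the 9 windows, those of Aspn, Epyc, Ogn, Omd and Prelp, and in 31.0% of all 32851 windows. TATAAA was found in the windows of Aspn, Chad and Ogn (13.6% of all windows), with the match in Chad starting 28 bases before the start. TGTGGT and GGAATG were each found in Epyc and Ogn (16.8% and 14.7% of all windows), while TGANTCA (7.81%) and TGGGTGGTC (0.253%) were in none of the 9. Bgn and Fmod held none of the 6 motifs. A match is only a run of letters, and its absence from this window says nothing about the factor.

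In wild-type chondrocytes the family spanned a wide range of levels. Epyc ranked highest with 1694 ± 223 FPKM (SD, n = 3), followed by Bgn with 742 ± 65.0, Lum with 625 ± 34.4, Dcn with 504 ± 30.0 and Fmod with 429 ± 36.8 FPKM. Ogn measured 229.8 ± 33.0, Omd 164 ± 23.7 and Chad 106 ± 27.3 FPKM, and Prelp and Aspn lay lowest with 19.0 ± 3.39 and 17.5 ± 4.30 FPKM. The ranges of neighbours in this order were separate except between Dcn and Fmod and between Prelp and Aspn. In Jab1 cKO libraries the order shifted in the middle and at the bottom. Lum, Dcn, Ogn and Fmod came together there, with ranges that overlapped from each to the next, and Ogn stood above Fmod and Aspn above Prelp in the means.

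**Figure D1:**
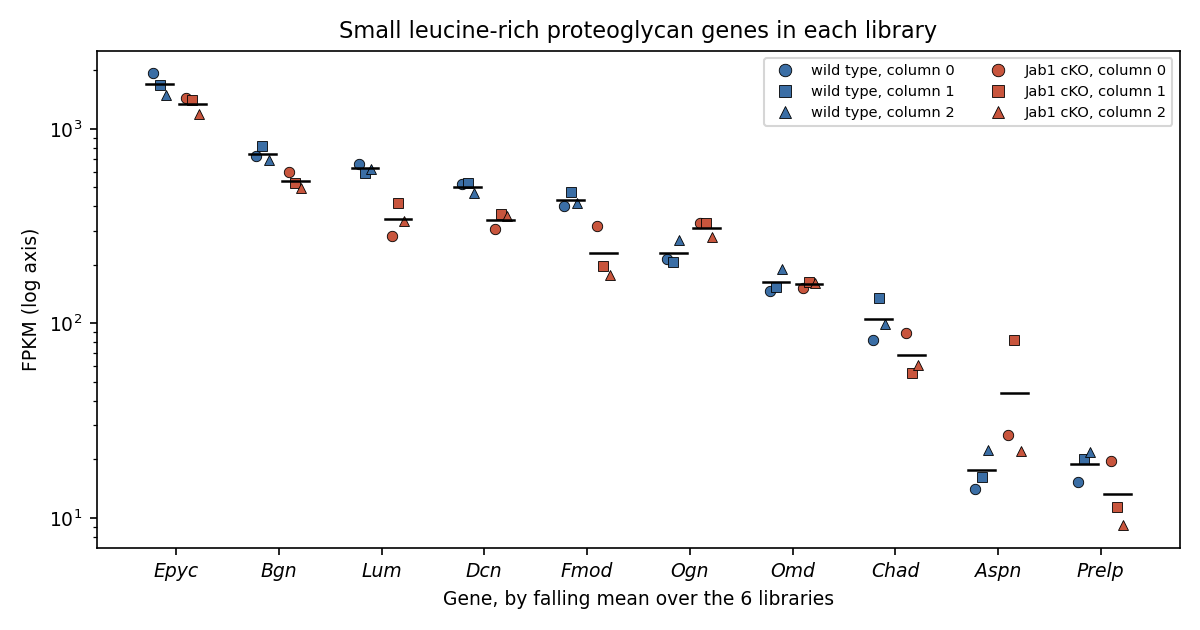
FPKM of each of the 10 genes (log axis) in the 3 wild-type (blue) and 3 Jab1 cKO (red) libraries, with the group mean as a bar and the column number as the marker shape. Lum and Dcn are lower in every mutant library, Ogn is higher in every mutant library, and Aspn stands out at 82.5 FPKM in mutant library 1.

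The 10 genes together held 0.766% ± 0.0349 of all FPKM in the wild-type libraries against 0.567% ± 0.0286 in the mutants (SD, n = 3). Their sum was 4703, 4606 and 4280.1 FPKM in the wild-type libraries against 3548, 3548 and 3081 FPKM in mutants 0, 1 and 2. Within that sum Epyc kept the largest share, 37.3% ± 3.29 in wild type and 39.6% ± 0.944 in mutant libraries. The share of Lum was 13.8% ± 0.833 against 10.1% ± 1.96 and that of Ogn 5.10% ± 0.997 against 9.15% ± 0.123. The Ogn to Lum ratio was higher in each mutant library, at 0.323, 0.350 and 0.432 in the wild-type libraries against 1.16, 0.789 and 0.831 in the mutants, a pair chosen after its values were seen. The ratio of Dcn to Bgn overlapped between groups, at 0.681 ± 0.0372 and 0.639 ± 0.112.

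The comparison asks which of these genes respond to the loss of Jab1. Across all 14012 genes tested with limma, 6.07% passed at a Benjamini-Hochberg adjusted p under 0.05, 2.59% as lower and 3.48% as higher in the mutant. Among the 10 members, 2 fell and none rose, while 5 members (4 lower, 1 higher) had an unadjusted p under 0.05, as did 24.7% of all genes. The groups did not overlap for 6 of the 10 members, against 32.2% of all tested genes. They were lower for 5 and higher for 1, against 15.9% and 16.3% of all genes. The median log2 fold change of the members was -0.50, beside -0.0039 over all genes tested, and 8 of the 10 estimates were below 0. Fold changes are mutant minus wild type on the log2(FPKM + 1) scale, so those of low genes are understated.

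**Figure D2:**
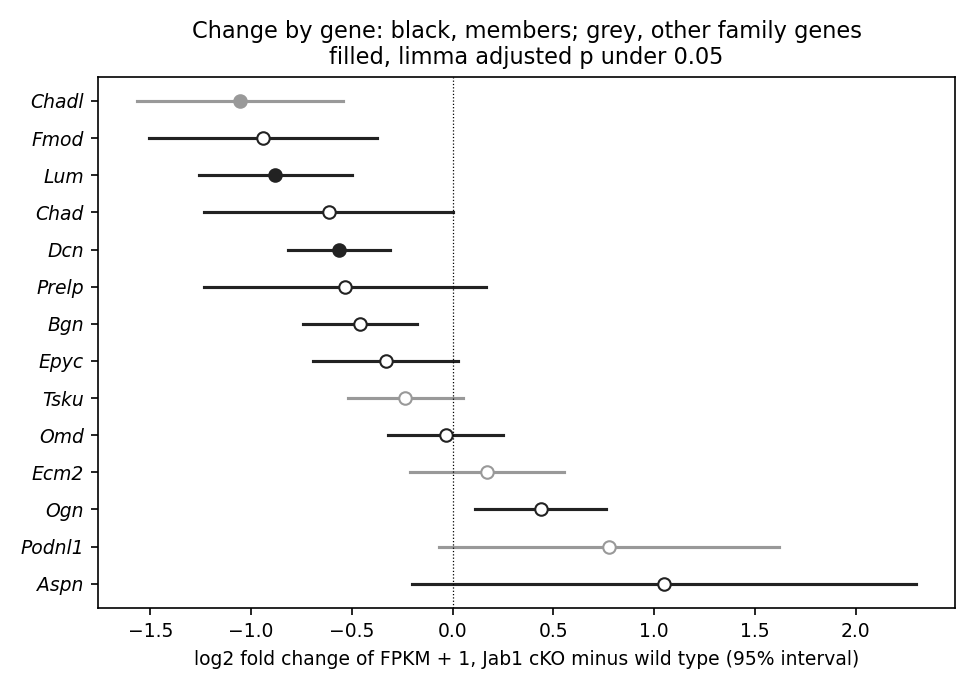
Log2 fold change of FPKM + 1, Jab1 cKO minus wild type, with its 95% interval for the 10 genes (black) and 4 other tested family genes (grey). Filled points, those of Lum, Dcn and Chadl, passed the limma test. The intervals of Fmod and Bgn also lie below 0 and that of Ogn above 0, though their adjusted p-values did not pass.

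Of the class I proteins, decorin binds collagen and TGF-beta and biglycan is its close relative, also a ligand of Toll-like receptors. Dcn (chromosome 10, 97479609 to 97518143, mm10) measured 518, 524 and 469 FPKM in the wild-type libraries against 305, 363 and 355 FPKM in the mutants. Every mutant library lay below every wild-type library, and Dcn fell by 0.56 on the log2 scale (SE 0.103, adjusted p = 0.040 in limma). Fewer cells of a type and less RNA per cell cannot be told apart in such bulk samples. The call for Dcn was lost when any library of either group was left out (adjusted p = 0.056 to 0.13), and with the Ddx3y level as a covariate, where the estimate was -0.95 (adjusted p = 0.18).

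Bgn lies on the X chromosome (73483602 to 73495933). It measured 721, 815 and 689.6 FPKM in the wild-type libraries against 596.5, 525 and 496 FPKM in the mutants. The groups did not overlap, but the change of -0.46 (SE 0.115) did not pass (adjusted p = 0.078). Mutant library 0, in which Xist was measured, was the highest of the 3 mutant libraries for Bgn. With the Ddx3y level as a covariate the estimate was 0.0052 (adjusted p = 0.995), and the part of sex in the difference was otherwise not tested.

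Asporin, the third class I protein, carries a run of aspartate residues near its start and is found around cartilage, in periodontal ligament and in tendon. Aspn (chromosome 13, 49544443 to 49567565) measured 14.0, 16.2 and 22.3 FPKM in the wild-type libraries against 26.7, 82.5 and 22.1 FPKM in the mutants. The groups overlapped, and mutant library 1 stood far above all others. The estimate of 1.05 had a wide error (SE 0.507, adjusted p = 0.27) and was 0.48 without mutant library 1.

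Of the tendon markers, 4 of 5 were also highest in mutant library 1, all but Mkx, as were 7 of 10 fibroblast and perichondrium markers, all but Col1a1, Col1a2 and Twist1. Tnmd, which encodes the tendon protein tenomodulin, measured 1.97, 2.54 and 4.47 FPKM in the wild-type libraries against 8.33, 29.2 and 4.43 FPKM in the mutants. Postn, which encodes periostin of the perichondrium and other fibrous layers, measured 45.7, 64.5 and 80.8 against 69.5, 265 and 69.2 FPKM. The 5 tendon markers summed to 5.81 to 12.1 FPKM in wild type and to 14.6, 51.4 and 10.03 FPKM in mutant libraries 0, 1 and 2, none at 0 in all libraries and none passing the test. The 10 fibroblast and perichondrium markers summed to 314 to 674 FPKM in the wild-type libraries against 415 to 790.2 FPKM in the mutants, with 1 of 7 tested, Twist1, higher, a call lost when any library other than mutant library 0 was left out. Over all genes tested, 3.48% were called higher. The part of the tendon and fibroblast markers in the Aspn values was not tested. For Lum and Dcn, which fibroblasts also express, mutant library 1 gave the highest of the mutant values, still below wild type. Omd was also highest there among the mutants, by a narrow margin. Bgn, Epyc, Fmod, Ogn, Chad and Prelp were instead highest in mutant library 0. The part of fibroblasts in any of these values was not tested.

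**Figure D3:**
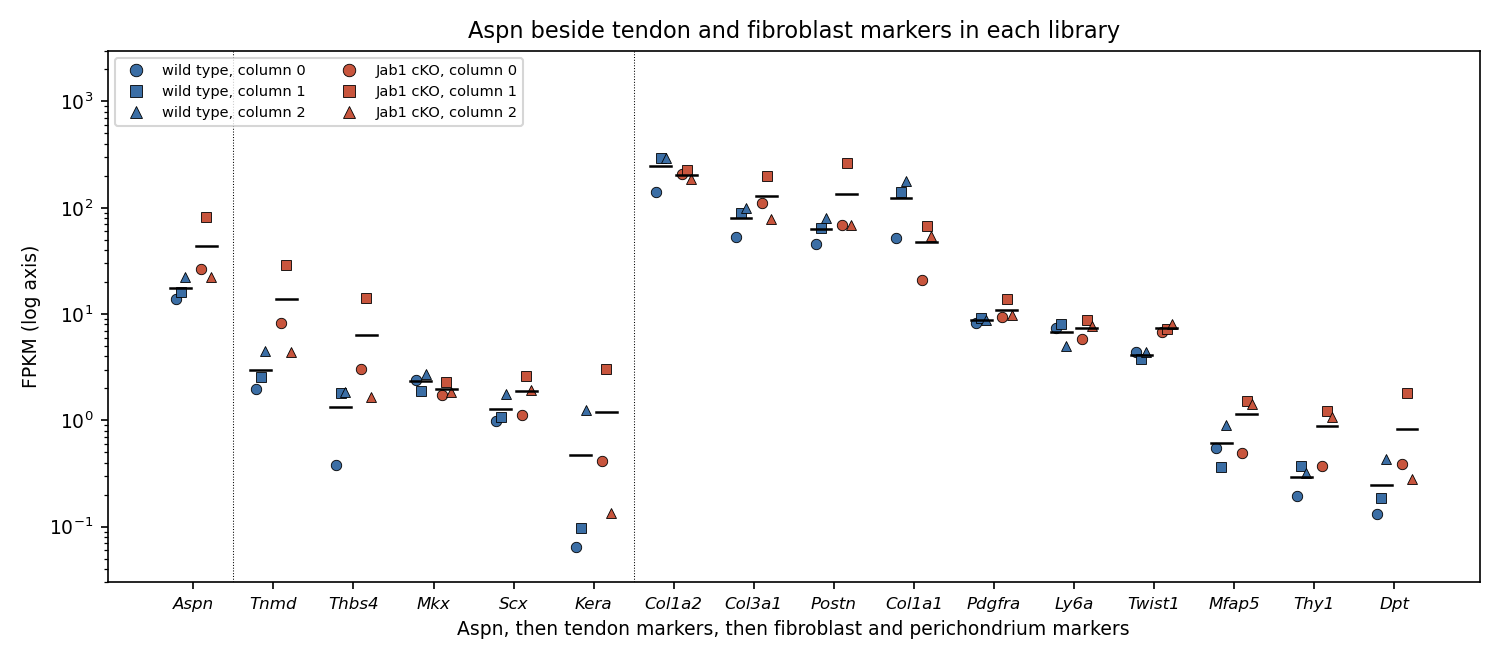
FPKM (log axis) of Aspn, of the 5 tendon markers and of the 10 fibroblast and perichondrium markers in each wild-type (blue) and Jab1 cKO (red) library, with group means as bars and dotted lines between the lists. Mutant library 1, the red square, is the highest point for Aspn (82.5 FPKM) and for 4 tendon and 7 fibroblast markers, but not for Mkx, Col1a1, Col1a2 and Twist1.

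The class II proteins include the keratan sulfate carriers lumican and fibromodulin, which bind neighbouring sites on collagen fibrils. Lum (chromosome 10, 97565128 to 97572703) measured 662, 593 and 620.1 FPKM in the wild-type libraries against 282, 414 and 334 FPKM in the mutants. Wild-type libraries lay close together and all mutant libraries lay well below them. Lum fell by 0.88 on the log2 scale (SE 0.154, adjusted p = 0.036 in limma). The call held without mutant library 0 or 1 (adjusted p = 0.048 and 0.037) but not without wild-type library 0, 1 or 2 or mutant library 2 (adjusted p = 0.10 to 0.12). With the Ddx3y level as a covariate the estimate was -1.69 and did not pass (adjusted p = 0.10).

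Fmod (chromosome 1, 134037254 to 134048277) had the lowest estimate of the 10 genes, with a larger spread. It measured 401, 471 and 416 FPKM in the wild-type libraries against 317, 198 and 177 FPKM in the mutants. The groups did not overlap and the change was -0.94 (SE 0.229), but it did not pass (adjusted p = 0.074). Without mutant library 0, the highest of the 3, Fmod passed the test at -1.19 (adjusted p = 0.017). With the Ddx3y level as a covariate the estimate turned to 0.47 (adjusted p = 0.485).

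Prelp encodes a protein with a basic start that binds heparan sulfate and anchors basement membranes to connective tissue. Prelp (chromosome 1, 133910304 to 133921414) measured 15.2, 20.0 and 21.8 FPKM in the wild-type libraries against 19.5, 11.3 and 9.16 FPKM in the mutants. Mutant library 0 lay within the wild-type range and the other mutant libraries below it, so the groups overlapped (log2 fold change -0.53, SE 0.283, adjusted p = 0.31). Omd, which encodes the bone-associated osteomodulin, measured 147, 153 and 191 FPKM against 152, 162 and 162 FPKM (chromosome 13, 49582462 to 49592822). Its change was -0.03 with a 95% interval of -0.32 to 0.25 (adjusted p = 0.89).

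Epyc and Ogn are the class III members, and they differed in direction. Epiphycan is found in developing cartilage, where it binds fibrils. Epyc (chromosome 10, 97644068 to 97682454) measured 1928, 1670.5 and 1484 FPKM in the wild-type libraries against 1433, 1411 and 1187 FPKM in the mutants. The groups did not overlap by a narrow margin, and the change was -0.33 (SE 0.146, adjusted p = 0.23), within a 95% interval of -0.69 to 0.03. Ogn, which encodes osteoglycin (also called mimecan) of bone and fibrous matrix, measured 214, 208 and 268 FPKM in the wild-type libraries against 328, 326 and 278 FPKM in the mutants (chromosome 13, 49608046 to 49624501). Every mutant library lay above every wild-type library, with wild-type library 2 and mutant library 2 close together. The estimate of 0.44 (SE 0.132) did not pass (adjusted p = 0.12).

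Chondroadherin, of class IV, is a cartilage protein that binds collagen and the integrin alpha2beta1. Chad (chromosome 11, 94565047 to 94569127) measured 82.3, 136 and 98.8 FPKM in the wild-type libraries against 89.6, 55.6 and 60.8 FPKM in the mutants. Mutant library 0 lay within the wild-type range, and the change of -0.61 (SE 0.250) did not pass (adjusted p = 0.20).

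The mutant libraries thus differed among themselves in a way that varied by gene. Fmod, Prelp and Chad were highest in mutant library 0, at -0.43, 0.05 and -0.20 from the wild-type mean on the log2 scale, against -1.11, -0.69 and -0.88 in library 1 and -1.27, -0.96 and -0.76 in library 2. Lum and Dcn were lowest in library 0, at -1.15 and -0.72, against -0.59 and -0.47 in library 1 and -0.90 and -0.50 in library 2. Bgn and Epyc were nearest to wild type in library 0 and farthest in library 2. The aggrecan gene Acan measured 1516 FPKM in mutant library 0 and 540.5 and 412 FPKM in libraries 1 and 2, against 905 to 1062 FPKM in wild type. Its mutant libraries ran in the same order as those of Fmod, Prelp, Bgn, Epyc and Ogn. Unlike Fmod, Acan in mutant library 0 lay above all wild-type libraries. As a measure of likeness, the root mean squared difference between mean-centred log2 values over the 6 libraries was 0.145 for Epyc and Bgn, the closest of the 45 pairs, 0.169 for Bgn and Dcn, 0.197 for Lum and Dcn and 0.225 for Chad and Prelp. It was 1.22 for Fmod and Aspn, the farthest pair. These pairs share libraries, and no test was made of them.

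**Figure D4:**
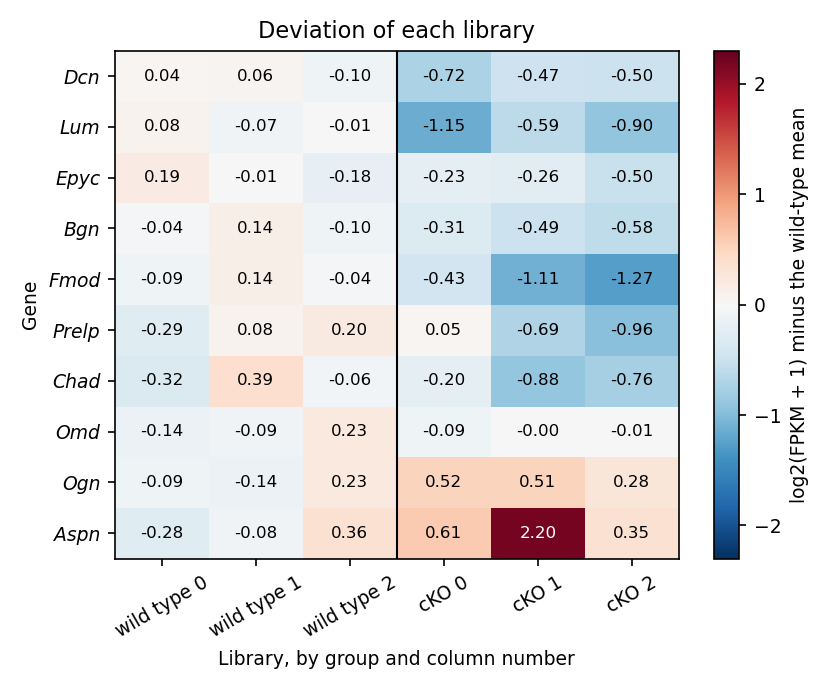
Each library's log2(FPKM + 1) minus the wild-type mean of the gene, for the 10 genes (rows) in 3 wild-type and 3 Jab1 cKO libraries (columns), on a colour scale from blue (lower) to red (higher). In mutant library 0, Lum is at -1.15 and Prelp at 0.05, while in mutant library 2 Fmod is at -1.27, and Aspn reaches 2.20 in mutant library 1.

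Most of the family lies in gene clusters, and the clusters gave a further view of the values. On chromosome 10, Dcn, Lum, Kera and Epyc lie on the same strand within 202.8 kb. All 3 members there were lower in every mutant library, with estimates of -0.56, -0.88 and -0.33, of which those of Dcn and Lum passed. Of all genes tested, 15.9% were lower without overlap and 2.59% were called lower. Kera, the keratocan gene between Lum and Epyc that is typical of cornea and tendon, stayed below the filter with 0.0647, 0.0980 and 1.25 FPKM in the wild-type libraries against 0.416, 3.05 and 0.136 FPKM in the mutants. Levels thus differed widely between adjacent genes, with Kera at 0.0647 FPKM and Epyc at 1928 FPKM in wild-type library 0. Kera exceeded 1 FPKM only in wild-type library 2 and mutant library 1.

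On chromosome 13, Ecm2, Aspn, Omd and Ogn lie within 119.7 kb, all inside the span of Cenpp on the opposite strand. None of the 3 members or Ecm2 fell or rose, and the estimates were 0.17 for Ecm2, 1.05 for Aspn, -0.03 for Omd and 0.44 for Ogn. Cenpp, a centromere protein gene, measured 11.8 ± 2.60 FPKM in the wild-type libraries against 11.2 ± 2.76 in the mutants (adjusted p = 0.87). The library kit keeps strand, but the sources used here do not say whether strand was used in quantification. This limit applies to Chad as well, which lies within Acsf2 on the opposite strand. Acsf2 measured 2.31 ± 0.156 against 3.55 ± 0.207 FPKM and passed as higher in the mutant (limma adjusted p = 0.047). On chromosome 1, Optc, Prelp and Fmod lie within 151.1 kb, and Optc, the opticin gene of the eye, was at 0.0342 to 0.167 FPKM. The difference in direction between the chromosome 10 and chromosome 13 members is given as values only, since the members were chosen with results known.

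**Figure D5:**
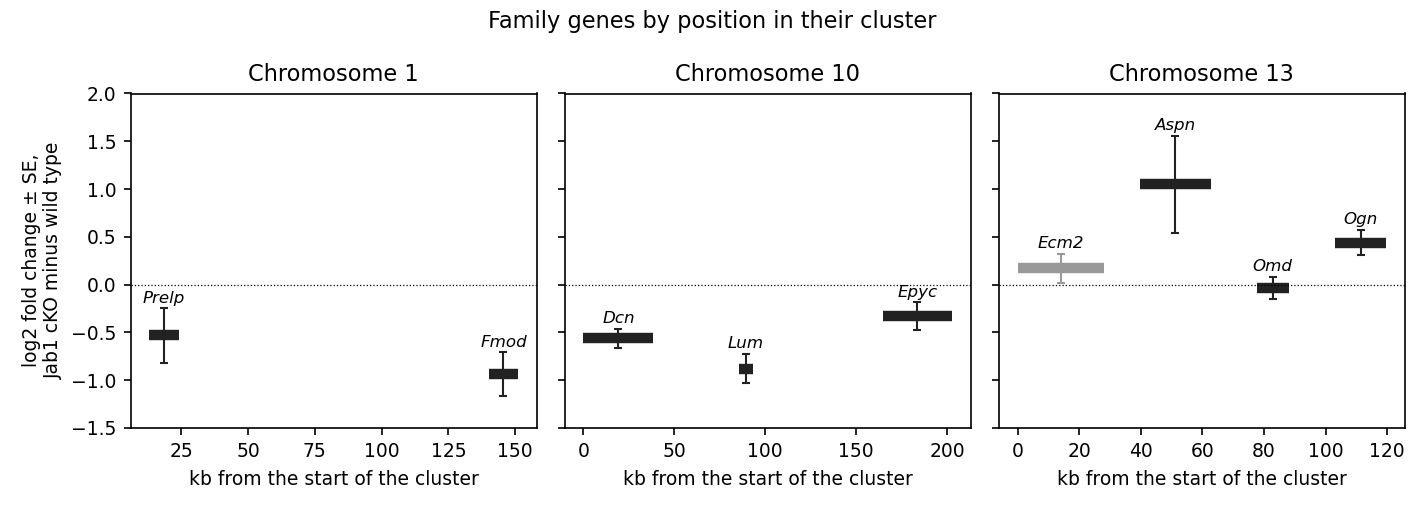
Log2 fold change ± SE, Jab1 cKO minus wild type, against distance from the start of each gene cluster in kb, with bars spanning each gene. Black bars are members and the grey bar is Ecm2; untested Kera and Optc are left out. The chromosome 10 genes lie at -0.33 to -0.88, and the chromosome 13 genes at -0.03 to 1.05.

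Of the 9 other family genes looked up, 4 passed the filter. Chadl, which encodes a chondroadherin-like cartilage protein (chromosome 15), measured 73.3, 68.4 and 59.4 FPKM in the wild-type libraries against 43.2, 25.3 and 29.0 FPKM in the mutants. Chadl fell by 1.05 on the log2 scale (SE 0.207, limma adjusted p = 0.045), lower in all 3 mutant libraries, and the call was lost when any library other than mutant library 0 was left out (adjusted p up to 0.14). Podnl1 measured 1.53 ± 0.664 and 3.45 ± 1.74 FPKM (adjusted p = 0.23), Tsku, which encodes the signalling regulator tsukushi, 14.0 ± 1.85 and 11.7 ± 0.944 FPKM (adjusted p = 0.28), and Ecm2 12.3 ± 0.691 and 14.1 ± 2.91 FPKM (adjusted p = 0.53). Podn, below the filter, measured 0.169, 0.979 and 0.407 against 1.71, 1.57 and 1.14 FPKM.

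Of 20 tested genes of chondroitin and dermatan sulfate synthesis, 1 passed, against 6.07% of all genes tested. It was the sulfotransferase Chst15, which was listed at 0 in each wild-type library and at 6.23, 5.24 and 6.27 FPKM in mutant libraries. Chst11, the main chondroitin 4-O-sulfotransferase, measured 208 ± 3.64 and 186 ± 15.4 FPKM (adjusted p = 0.28), and Fam20b, the kinase that phosphorylates the linker xylose, 117 ± 2.05 and 119 ± 6.21 FPKM (adjusted p = 0.82). Pxylp1, the phosphatase that takes that phosphate off, measured 14.7 ± 0.885 and 17.8 ± 0.843 FPKM (adjusted p = 0.10). Chst15 lies in a run of 28 genes on chromosome 7 that are all listed at 0 in wild type, and whether these are failed estimates was not tested. Without it 0 of 19 genes passed in limma, 4 had an unadjusted p under 0.05 and the list median was 0.0042.

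Of 6 tested genes of keratan sulfate chains, 2 rose, against 3.48% of all genes tested. Fut8, the fucosyltransferase that adds core fucose to N-glycans, on which these chains are built, rose from 17.6 ± 0.722 to 26.4 ± 1.85 FPKM (limma adjusted p = 0.019), and the sulfotransferase gene Chst2 rose from 1.12 ± 0.200 to 2.62 ± 0.279 FPKM (adjusted p = 0.035). B4galt1, a galactosyltransferase, measured 12.1 ± 1.29 and 12.3 ± 0.666 FPKM (adjusted p = 0.91), and the list median was 0.04. Fibromodulin, lumican and osteomodulin are also sulfated on tyrosines, by Tpst1 and Tpst2. Tpst2 rose from 13.2 ± 1.13 to 19.0 ± 1.37 FPKM (adjusted p = 0.039), while Tpst1 measured 82.5 ± 6.32 and 86.2 ± 0.701 FPKM (adjusted p = 0.64). The calls for Chst2 and Tpst2 were lost when any single library was left out, and that for Fut8 when any other than mutant library 0 was left out (adjusted p up to 0.12 for Tpst2 and 0.086 for Fut8).

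Of 16 tested collagen genes of the fibrils and filaments that these proteins bind, limma called none, and 2 had an unadjusted p under 0.05, 1 higher and 1 lower. The former was Col6a1, a chain of the collagen VI filaments that biglycan and decorin bind, at 465 ± 137 and 716 ± 129 FPKM (adjusted p = 0.17). The latter was Col9a2, a chain of the collagen IX on cartilage fibrils, at 1960.1 ± 197 and 1392 ± 329 FPKM (adjusted p = 0.18). Col9a3 measured 2438 ± 299.6 and 1852 ± 411 FPKM (adjusted p = 0.26), and the list median was -0.04. Col2a1, Col9a1 and Col11a1 were not analysed here.

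Genes of the enzymes that process or cut these proteins gave calls in both directions, 3 higher and 3 lower among 10 tested, or 2 higher and 3 lower of 9 without Htra1, whose wild-type values are listed at 0. Over all genes tested, 3.48% were called higher and 2.59% lower. Bmp1, the proteinase that removes the propeptides of biglycan and of procollagens, fell from 30.3 ± 1.28 to 23.2 ± 0.584 FPKM (adjusted p = 0.032), a call lost when any single library was left out. Its enhancer Pcolce fell from 67.9 ± 4.67 to 38.8 ± 7.93 FPKM (adjusted p = 0.042), while Pcolce2 measured 107 ± 6.11 and 113 ± 7.59 FPKM (adjusted p = 0.60). Both act in the same step of matrix assembly.

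The metalloproteinase genes Mmp2 and Mmp3 rose, from 80.2 ± 2.22 to 111 ± 3.83 FPKM (limma adjusted p = 0.020) and from 0.616 ± 0.142 to 4.93 ± 1.69 FPKM (adjusted p = 0.019). Mmp8, the collagenase of neutrophils, fell from 3.72 ± 1.77 to 0.219 ± 0.0790 FPKM (adjusted p = 0.023). The 6 leukocyte markers found summed to 32.6 to 67.6 FPKM in the wild-type libraries against 10.01 to 38.3 FPKM in the mutants, with none of 5 tested passing in limma and 2 lower at an unadjusted p under 0.05; their part in the Mmp8 values was not tested. Htra1, a serine protease that cuts decorin and fibromodulin, was listed at 0 in each wild-type library and at 51.3, 51.3 and 46.7 FPKM in mutant libraries. It lies in the same chromosome 7 run as Chst15, and whether its zeros are failed estimates was not tested. Leaving out single libraries gave 1 to 3 higher, Htra1 among them each time, and 0 to 1 lower. Without wild-type library 0 or 1, none of Mmp2, Mmp3, Mmp8, Bmp1 and Pcolce passed. Of the 6 fits that left out a library, Mmp2, Mmp8 and Pcolce each passed in 1 and Mmp3 in 2. With the Ddx3y level as a covariate none of Mmp2, Mmp3, Mmp8, Bmp1 and Pcolce passed. The list median was -0.35 without Htra1.

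Among growth factors and receptors that members of the family bind, 2 of 15 tested rose, against 3.48% of all genes tested. An unadjusted limma p under 0.05 was found for 9, of which 8 were higher and 1 lower, against 24.7% of all genes. Without overlap, 8 were higher and 1 lower, against 16.3% and 15.9% of all genes. Tgfbr2, a receptor of the TGF-beta that decorin and biglycan bind, rose from 16.7 ± 1.03 to 21.4 ± 0.453 FPKM (limma adjusted p = 0.044), and Tlr2, a receptor for soluble biglycan, from 2.67 ± 0.219 to 4.47 ± 0.534 FPKM (adjusted p = 0.042). Both calls were lost when any single library was left out (adjusted p up to 0.14). Itgb1, the beta chain of the integrin that chondroadherin binds, measured 149 ± 12.3 and 171 ± 12.4 FPKM (adjusted p = 0.26), and Tgfb2 48.4 ± 4.78 and 39.2 ± 8.13 FPKM (adjusted p = 0.29). The list median was 0.34.

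Outside the family, the genes whose values ran most like those of 3 highly expressed members were found by the same root mean squared difference among 10643 protein-coding genes. For Bgn they were Zer1, Golgb1 and Npc1 (0.0322 to 0.0517), for Lum Klhl13, Hdac11 and Zfp648 (0.0836 to 0.0870) and for Epyc Pex11g, Zfyve21 and G2e3 (0.0521 to 0.0568). The members themselves varied by 0.253, 0.470 and 0.217 around their own means. Klhl13 measured 105, 84.6 and 95.3 FPKM in the wild-type libraries against 47.8, 60.3 and 50.4 FPKM in the mutants. In each group it was highest in the library where Lum was highest, which its choice by likeness over these same libraries favours.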

How the data were processed

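RNA was measured by sequencing of 6 libraries, 3 wild type and 3 Jab1 cKO. Total RNA was depleted of ribosomal RNA and made into strand-keeping libraries, per the labels' protocols. The authors deposited FPKM values in 1 table, and the submitters' processing notes name STAR, Cufflinks, Cuffdiff and mm10, with versions and settings not given in the sources used here. Whether values were also scaled between libraries is not stated. Library totals were 571180 to 631534 FPKM. Read depth is unknown, so no counting intervals are given.

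Columns 0 and 1 of each group were matched to samples. Column 2 of each group was matched to its group only, since no sample description carries that number. Coordinates are from GENCODE M21 (mm10). After log2(FPKM + 1), the 14012 genes averaging 1 FPKM or more entered a limma 3.58.1 model of genotype (R 4.3.3, eBayes with trend=TRUE), two-sided, with Benjamini-Hochberg adjustment over all genes tested. Rose and fell mean an adjusted p under 0.05. Intervals are at the 95% level. The fit was tested on simulated data. The 10 members and the gene lists were chosen with earlier results of these data known. Named were all members, and of each list the genes with the 2 smallest p-values and the 2 highest means, plus those that passed where a list had 5 or fewer; family genes in the clusters; and for the highest member of classes I, II and III the 3 genes most like it. Other named genes, Mmp8, Bmp1 and Pcolce among them, were chosen after their values were seen. Marker lists covered chondrocyte, fibroblast and perichondrium, tendon, osteoblast, muscle, endothelium, leukocyte, red blood cell and fat. Alternatives, 16 in all, changed the pseudocount, filter, scaling, variance prior, weights or covariate, added a replicate block, or left out a library.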

Additional observations from a re-analysis of the deposited data

How the results depend on the processing

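Members that fell numbered 2 with pseudocounts of 0.1 or 0.5, a robust prior, median-of-ratios scaling and a filter at 5 FPKM, and 3 with quantile normalization, which added Bgn. They numbered 0 without the filter (all genes changed: 461, against 850), 4 with library weights (1488 genes), 0 with the Ddx3y level as a covariate (140 genes) and 0 with the replicate block (60 genes). The cause was not tested. Leaving out each library gave 0 to 2 falling members and 174 to 666 changed genes. No member rose under any of the 16 alternatives. The replicate number was no sign of pairing, since the deviations of same-numbered libraries correlated at -0.0328, -0.0421 and -0.0226; those labels share only a number, so the block result is given for completeness. Directions reversed with the covariate for Aspn (-0.73), Bgn (0.0052), Chad (0.65), Fmod (0.47) and Prelp (0.95). Leaving out single libraries gave -0.105 to 0.0811 for Omd, above 0 without wild-type library 2. Estimates of Dcn, Epyc, Lum and Ogn kept their sign in all 16. With all wild-type libraries low in Ddx3y, the covariate and genotype overlap, so these estimates rest on the spread among the mutant libraries. Other marker sums in wild-type and mutant libraries were 66.4 to 187 against 51.4 to 231 FPKM for osteoblast, 138 to 169 against 48.9 to 73.0 for muscle (Tnnt3 lower), 2.62 to 4.42 against 1.29 to 10.7 for endothelium and 7.71 to 9.21 against 16.8 to 26.1 for fat (Pparg higher). Tnnt3 made up most of the muscle sum, at 162, 137 and 123 FPKM in the wild-type libraries against 41.6, 63.5 and 50.3 FPKM in the mutants. The other muscle genes tested, Acta1 and Ckm, overlapped between groups. The calls for Tnnt3 and Pparg were lost without wild-type library 0, 1 or 2 or mutant library 2.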

Other observations

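The 2 list genes listed at 0 in every wild-type library, Htra1 and Chst15, both lie in a run of 28 protein-coding genes on chromosome 7 (130162451 to 133124354, mm10) that were all listed at 0 in all 3 wild-type libraries. Of these, 20 had a mutant mean of at least 1 FPKM. In the whole table, 245 genes were at 0 in wild type with such a mutant mean, and 23 of them lay in this run. No member of the proteoglycan family was at 0 in any library. Values of genes in this run were therefore given as listed, with no fold change.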
